A study of Homo sapiens with 3 samples.

Results

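The mitochondrial ribosomal protein genes were followed through 3 RNA-seq libraries of T24, a human bladder carcinoma cell line. The family was chosen by gene symbol (MRPL or MRPS followed by a number and, in some, a letter, on protein-coding genes) with earlier results of these libraries known, so its values are given as a description and not as a test. The rule found 78 of the 58381 genes in the table, 49 with an MRPL symbol (large subunit) and 29 with an MRPS symbol (small subunit). The first library, Ctrl, came from cells without irradiation, the second, RT, from cells irradiated with 10 Gy, and the third, RT + shHDAC6, from cells that received the same 10 Gy and carried a lentiviral shRNA against HDAC6, a cytoplasmic deacetylase that acts on tubulin. The sample labels describe a control pLKO.1 vector and puromycin selection in T24 cells, whereas the paper's results call the comparison cells parental, so that a vector in Ctrl and RT could not be settled. There was 1 library per condition. No difference below therefore has a replicate check, no p-value is given, and every interval covers counting error only.

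Mitochondria translate the few proteins encoded in their own genome on a separate ribosome. Its rRNAs are transcribed inside the organelle, while all of its proteins are encoded in the nucleus, made in the cytosol and imported. The small subunit reads the mRNA and the large subunit joins the amino acids. Many of these proteins have a counterpart in the bacterial ribosome and others are particular to mitochondria. The products of the organelle's mRNAs are membrane subunits of the respiratory chain and ATP synthase, which join subunits encoded in the nucleus.

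The libraries held between 35424086 and 41811165 counts, and all 78 genes were detected in all 3. Mitochondrially encoded RNA took 3.75%, 6.09% and 5.51% of Ctrl, RT and RT + shHDAC6. The targeted gene, HDAC6, was counted 3098, 2383 and 2170 times in Ctrl, RT and RT + shHDAC6. The shRNA library held 87.2% of the RT level (log2 ratio -0.20, 95% counting interval -0.28 to -0.11). Differences between the irradiated libraries are therefore between libraries labelled by the shRNA, in which HDAC6 mRNA differed little. By qPCR and Western blot, the paper reported lower HDAC6 mRNA and protein in its knockdown T24 cells than in control cells. In the same order KRT18, an epithelial keratin, had 7336, 8362 and 9048 counts. With it 8 of 11 urothelial and epithelial markers had at least 10 counts in every library, whereas the umbrella-cell markers UPK1B, UPK2 and UPK3A had at most 3. The list as a whole did not follow KRT18, and its summed counts were 17518, 15816 and 12745. The median log2 ratio of the 8 was -0.47 in RT against Ctrl, with 2 above 0. In RT + shHDAC6 against Ctrl it was -0.81, with 1 above 0. Of 11 markers of other cell types, 9 to 10 had at least 10 counts, none was at 0, and their summed counts were 14448, 8201 and 7344, led by the collagen genes COL3A1 (7426, 4701 and 2971) and COL1A1 (4706, 2388 and 2921). All 3 libraries were labelled as the cell line T24, so these counts need not come from other cells, and their source was not tested. The part of these markers in the ratios below was not tested. In bulk RNA fewer cells of a type and less RNA per cell cannot be told apart.

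The family took a small share of the counts. Ctrl held 118985 of its counts, or 0.285% of the library (95% Clopper-Pearson interval 0.283 to 0.286). RT held 101993 counts, or 0.284% (0.282 to 0.285), and RT + shHDAC6 112274, or 0.317% (0.315 to 0.319). As a share of all counts the family was thus level between Ctrl and RT and higher in RT + shHDAC6. The MRPL genes went from 0.167% in Ctrl to 0.159% in RT and 0.177% in RT + shHDAC6, and the MRPS genes from 0.117% to 0.125% and 0.14%.

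The balance between the subunits moved towards the small one in both irradiated libraries. There were 70.1 MRPS counts per 100 MRPL counts in Ctrl (69.3 to 70.9), 78.7 in RT (77.8 to 79.7) and 79.1 in RT + shHDAC6 (78.2 to 80.1). A pair of genes carried much of this. With MRPS25, the most counted small subunit gene in the irradiated libraries, and MRPL23 left out, the values were 64.1 in Ctrl (63.4 to 64.9), 66.5 in RT (65.6 to 67.3) and 68.3 in RT + shHDAC6 (67.5 to 69.2).

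Levels of single genes are compared per length, as CPM (counts scaled to library size, here with TMM factors), divided by the kilobases of the gene's canonical transcript and averaged over the 3 libraries. Among the large subunit genes MRPL51 had the highest level at 86.5 CPM per kb, followed by MRPL3 at 84.2 and MRPL37 at 64.3. Among the small subunit genes the highest were MRPS34 at 61.1, MRPS22 at 53.7 and MRPS15 at 51.1. The lowest large subunit genes were MRPL12 at 1.20, MRPL38 at 3.42 and MRPL42 at 4.47, and the lowest small subunit genes were MRPS24 at 1.11, MRPS17 at 2.68 and MRPS33 at 2.77. With all annotated exons as the length MRPL51 and MRPS24 kept the first and the last place in the family. MRPS34, MRPL3 and MRPL37 then stood at places 2, 3 and 5. Other places depended on the length used. MRPS22 fell from place 7 to place 66, at 3.95 CPM per kb, and MRPS15 from place 9 to place 24. MRPL46, at 1.04, became the lowest large subunit gene in place of MRPL12, at 1.20.

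**Figure D1:**
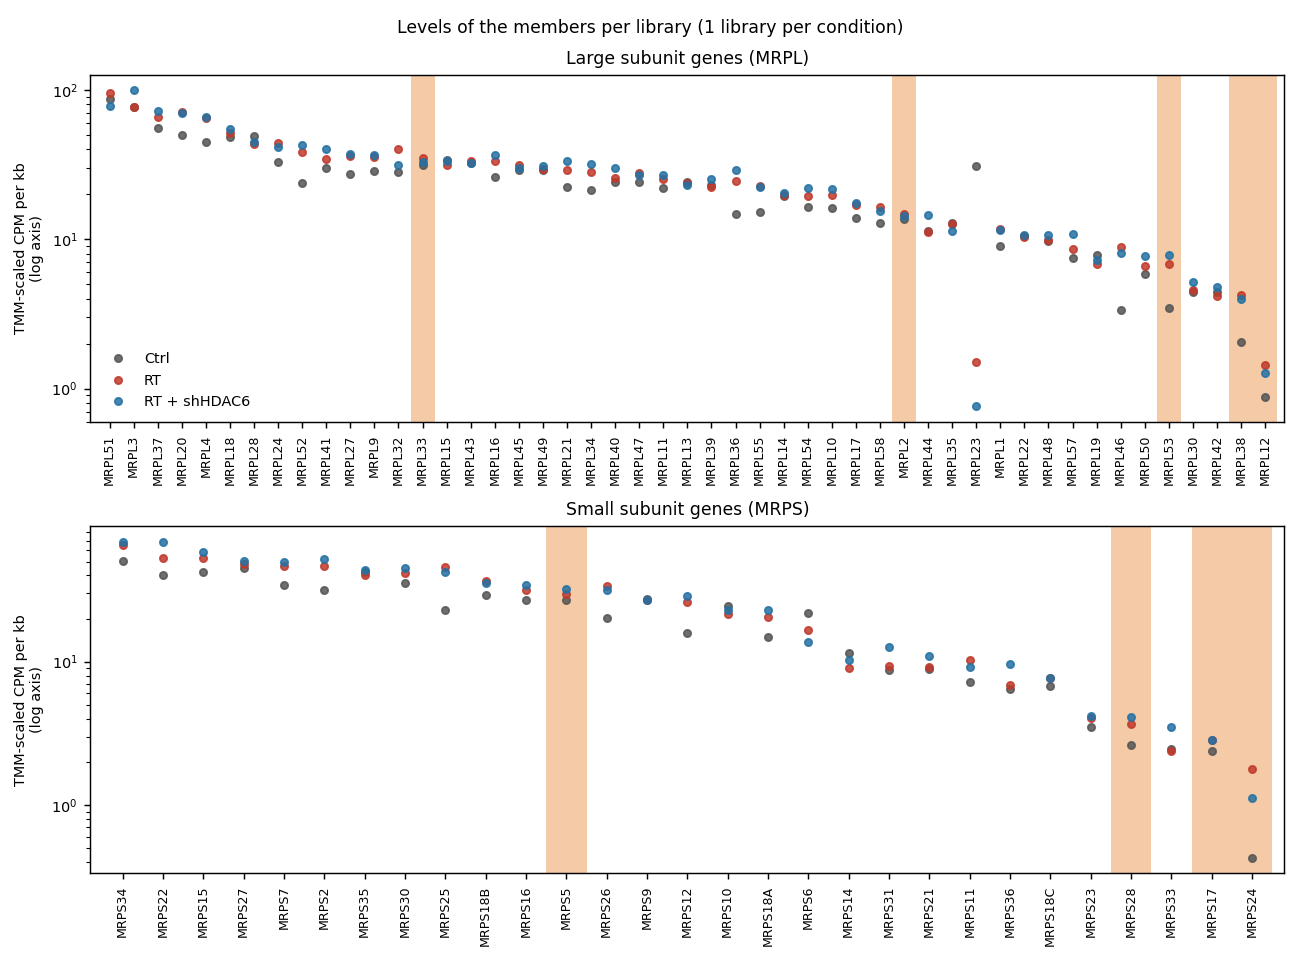
Each column is one gene and each point one library, on a log axis of TMM-scaled CPM per kb of canonical transcript, with large subunit genes above and small subunit genes below, ordered by mean level. Shaded columns are the 9 genes with at least 20% of their exon length in common with a same-strand neighbour; MRPL23 is the gene whose irradiated points fall far under the Ctrl point, from 30.7 to 1.51 and 0.764 CPM per kb.

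Shared exons went with the lowest levels. All 6 genes under 200 counts in every library shared at least 20% of their exon length with another gene on the same strand, namely MRPL12 (69.5%), MRPL53 (72.8%), MRPL38 (41.1%), MRPS28 (35.8%), MRPS17 (25%) and MRPS24 (23.2%). The 9 genes with such an overlap had a median level of 3.46 CPM per kb, against 26.3 in the 60 with none. Several partners are read-through genes listed at 0 counts in all 3 libraries, such as URGCP-MRPS24 and the partner of MRPL12 (ENSG00000262660). How the counting treated reads in shared exons was not stated, so the levels of MRPL12, which forms the ribosomal stalk and also binds the mitochondrial RNA polymerase, and of MRPS24 are uncertain. Across both strands 41 of the 78 genes shared some exon sequence with another gene.

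The promoters held a feature that the choice of genes did not use. RefSeq promoter windows of 300 bases, from 250 before to 50 after the start of the gene (GRCh38.p14), were found for 69 of the 78 genes and for 11596 protein-coding genes. The letters AANATGGCG, a core of the binding motif of YY1, stood on either strand in 18 of 69 (26.1%), against 6.27% of all windows. In 16 of the 69 (23.2%) they lay on the gene's own strand within the 50 bases after the start, against 3.56% of all windows. The letters contain ATG, and whether these matches mark the start of translation was not tested. Counted on either strand and over the whole window, large and small subunit genes were alike, with 11 of 42 and 7 of 27. The letters CCGGAAGT of the ETS motif, which GABPA binds, stood in 11 of 69 (15.9%) against 8.03%. Those of NRF1 (GCGCNTGCG) stood in 11 of 69 (15.9%) against 13.7%, those of SP1 (GGGGCGGGG) in 17 (24.6%) against 26.8%, those of the E-box (CACGTG), which MYC can bind, in 6 (8.7%) against 9.67%, and those of ERR (TNAAGGTCA) in none, against 0.561%. At least 1 of the NRF1, ETS and YY1 letters stood in 34 of 69 (49.3%), against 24.7%.

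The YY1 letters are shown in 30-base windows, 5′ to 3′ on the strand of the gene and with the match in capitals, for genes that stood at both ends of the response to irradiation. MRPL46, MRPL38, MRPS24, MRPL52 and MRPL36 were among the highest in RT against Ctrl, and MRPS14 and MRPS10 among the lowest. In MRPL36 the match is on the other strand, before the start of the gene, and one of the matches of MRPL52, also before the start, is shown. The windows lie on GRCh38 at chr15:88467361-88467390 (minus strand) for MRPL46, chr17:75904859-75904888 (minus) for MRPL38, chr7:43869479-43869508 (minus) for MRPS24, chr14:22829779-22829808 (plus) for MRPL52, chr5:1799854-1799883 (minus) for MRPL36, chr1:175023392-175023421 (minus) for MRPS14 and chr6:42217833-42217862 (minus) for MRPS10.
MRPL46: gggagaacgaAAGATGGCGgcgcccgtaag
MRPL38: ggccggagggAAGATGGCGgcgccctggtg
MRPS24: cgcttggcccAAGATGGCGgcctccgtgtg
MRPL52: acgatgacccAAGATGGCGgagccgtgatt
MRPL36: ccccccccgcCGCCATCTTccttcctggca
MRPS14: tgtagcggacAACATGGCGgccttcatgct
MRPS10: cgggaccggcAAGATGGCGgcgcggacagc

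Ratios of genes with and without these letters overlapped widely. The median log2 ratio of RT against Ctrl was 0.33 in the 18 with the YY1 letters and 0.21 in the 51 without. It was 0.39 in the 11 with the ETS letters and 0.20 in the 58 without. The other motifs went the other way, with 0.12 against 0.25 for NRF1, 0.15 against 0.24 for the E-box and 0.19 against 0.24 for SP1. For RT + shHDAC6 against RT the medians were 0.065 with and 0.083 without the YY1 letters. A match describes the sequence and is no evidence of binding.

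In RT against Ctrl most genes of the family stood above the middle of the transcriptome, by a small amount. The median log2 ratio was 0.22 after TMM scaling, against -0.06 over the 20267 genes with at least 10 counts in one of both libraries, and 61 of the 78 genes (78.2%) were above 0, against 45.8% of all genes. With library totals in place of TMM every ratio of this comparison was lower by 0.22, and the family's median became -0.00093 and that of all genes -0.28. The distance of 0.28 between them does not depend on the scaling, which shifts all ratios by 1 amount, while genes with a TMM ratio between 0 and 0.22 change their sign. It does depend on the genes compared with, and was 0.16 among genes with at least 100 counts, 0.36 among those with at least 1 count and 0.24 among protein-coding genes. The large subunit genes had a median of 0.21 and the small subunit genes one of 0.24. Without the genes that share exons with another gene the order turned round, with 0.25 for the large and 0.15 for the small subunit genes. The 46 genes with a bacterial counterpart had a median of 0.25 and the 31 particular to mitochondria one of 0.20. The counting interval lay above 0 for 47 genes, below 0 for 9 and across it for 22.

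A gene was called higher or lower where its ratio was at least 1.5-fold. In RT against Ctrl 10 of the 78 were called higher and 1 lower, while 14.5% of all genes were called higher and 20.5% lower. The share called higher was thus near the background and the share called lower under it. With a lower fold limit 30 members (38.5%) were higher, against 25.5% of all genes. The called gene nearest to the upper limit was MRPL52 with a log2 ratio of 0.69, and the nearest gene not called was MRPL55 with 0.58.

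MRPL46, a protein particular to the mitochondrial large subunit, had the highest ratio of the large subunit genes. The Ctrl library held 150 counts, against 294 in RT and 277 in RT + shHDAC6. The log2 ratio of RT against Ctrl was 1.41 (1.12 to 1.70). MRPL46 shares 11.3% of its exon length on the same strand. The gene (ENSG00000259494) lies at chr15:88459477-88467390 on the minus strand, 63 bases head to head with MRPS11, a small subunit gene with a bacterial counterpart. MRPS11 went from 1107 counts in Ctrl to 1165 in RT and 1090 with the shRNA, a log2 ratio of 0.51 in RT against Ctrl. Both neighbours were above the family's median, by different amounts.

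MRPS25, also particular to mitochondria, had the highest ratio of the well counted small subunit genes. It went from 4778 counts in Ctrl to 7011 in RT and 6778 in RT + shHDAC6, and the log2 ratio of RT against Ctrl was 0.99 (0.94 to 1.04). The gene (ENSG00000131368, chr3:15009611-15065339, minus strand) shares 39.1% of its exon length with genes on the other strand, among them NR2C2, a nuclear receptor gene with 7176, 4886 and 4812 counts. It also shares 11.3% of its exon length on the same strand. The raw counts of NR2C2 were lower in the irradiated libraries, which also held fewer counts in total. The part of shared exons in the ratio of MRPS25 was not tested.

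MRPS26 (930, 1149 and 1132 counts in that order of libraries) and MRPS12 (684, 843 and 962), which lies at the decoding site, each had a log2 ratio of 0.74 in RT against Ctrl. MRPS12 starts 181 bases head to head from SARS2, the mitochondrial seryl-tRNA synthetase, which had 173, 268 and 213 counts and a ratio of 1.07. MRPL52 (1201, 1431 and 1663 counts) had a ratio of 0.69 (0.58 to 0.80). MRPL36 (409, 501 and 618 counts), one of the smallest large subunit proteins, had 0.73 (0.54 to 0.92), whereas NDUFS6, the complex I gene that starts 41 bases away on the other strand, had -0.11. In each of these genes both irradiated libraries had more counts than Ctrl despite fewer counts in total.

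The other 4 genes called higher were those with few counts and shared exons. MRPS24 went from 13 counts in Ctrl to 40 in RT and 26 with the shRNA, a log2 ratio of 2.06 (1.12 to 3.08) in RT against Ctrl. MRPL38 had 127, 193 and 189 counts and a ratio of 1.04 (0.71 to 1.37), MRPL53 had 78, 113 and 136 counts and 0.97 (0.54 to 1.41), and MRPL12 had 40, 49 and 45 counts and 0.73 (0.096 to 1.37). MRPL53 shares 72.8% of its exons on the same strand with genes such as CCDC142 (812, 1056 and 1031 counts). With the 41 genes that share exons left out, 4 of 37 were called higher (10.8%, against 14.5% of all genes) and 0 lower (against 20.5%). The median over both subunits was then 0.22.

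**Figure D2:**
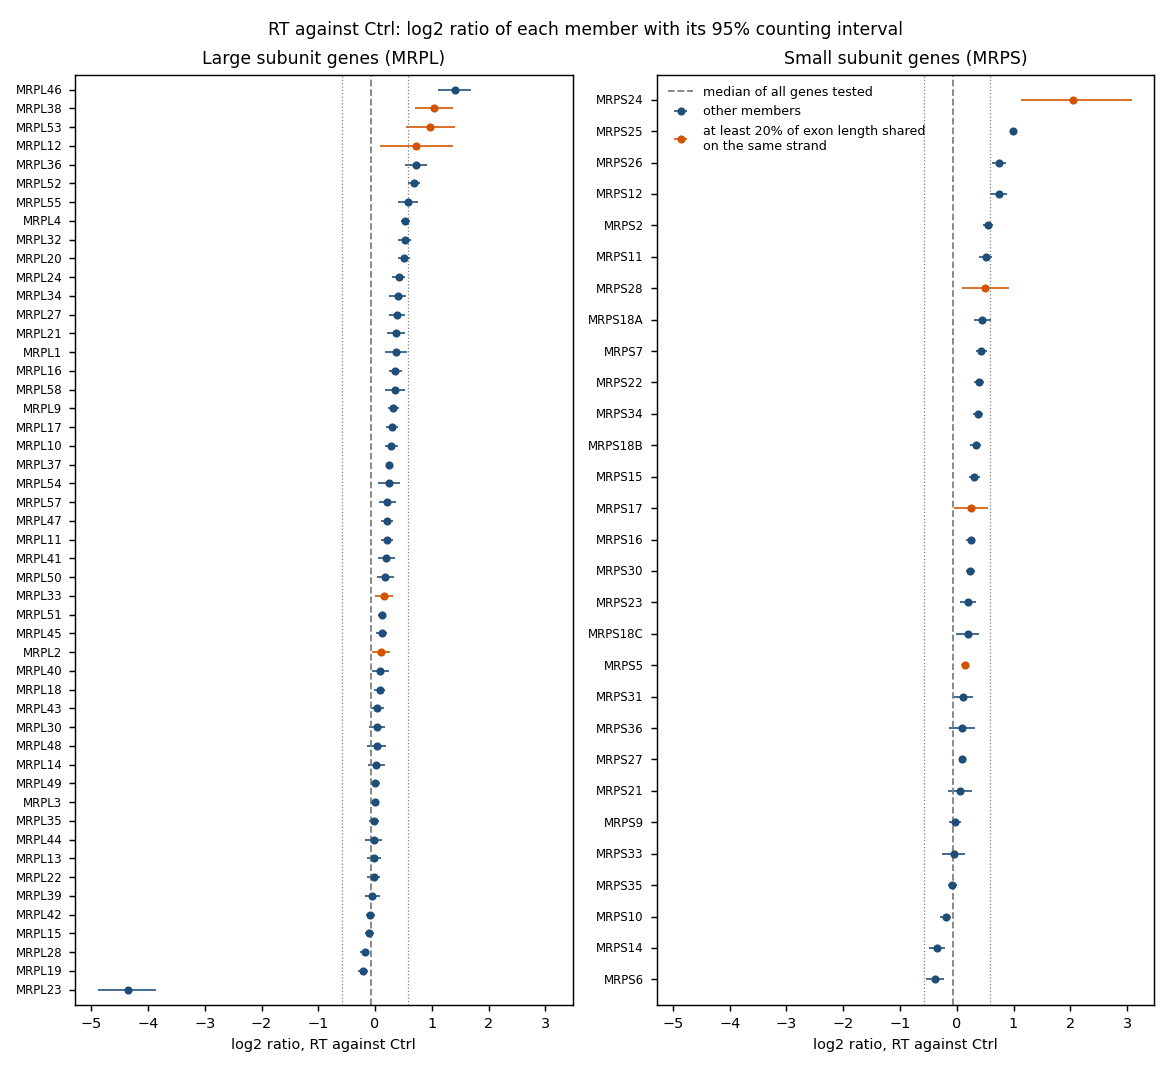
Log2 ratio of RT against Ctrl on the x axis for each of the 49 large (left) and 29 small subunit genes (right), with bars for the 95% counting interval, a dashed line at the median of all genes and dotted lines at 1.5-fold. Most points lie between the dashed line and the upper dotted line. The widest bars belong to MRPS24 and MRPL12, which share exons on the same strand (orange), and MRPL23 stands alone at -4.35.

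The exception was MRPL23, a protein at the exit of the peptide tunnel. Ctrl held 938 counts of it, RT 34 and RT + shHDAC6 18. RT thus had 4.9% of the Ctrl level, a log2 ratio of -4.35 (-4.89 to -3.86), and the shRNA library 2.49%, a ratio of -5.33 (-6.09 to -4.66). In neither comparison with Ctrl did another gene with at least 100 counts in one of both libraries have a lower ratio, among 12670 and 12712 genes. Of 12593 genes with at least 100 counts in Ctrl, MRPL23 and the small RNA pseudogene RN7SL4P (118, 5 and 9 counts) were the 2 genes at least 8-fold below Ctrl in both irradiated libraries. The next lowest member in RT against Ctrl, MRPS6, had a ratio of -0.39.

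MRPL23 (ENSG00000214026) lies at chr11:1947278-1984522 on the plus strand, in the 11p15.5 region, and its canonical transcript of 673 bases has 5 exons. Its antisense neighbour MRPL23-AS1 had 0, 0 and 1 counts. The well counted genes within 500 kb were not lower with it. CTSD, a lysosomal protease gene that starts 183 kb before it, had 1656 counts in Ctrl and more, 2404 and 2011, in the irradiated libraries. CD81, a tetraspanin gene 429 kb after it, had 3901, 4854 and 4262, TSSC4 had 788, 1379 and 1399, and MOB2 had 743, 658 and 790. The log2 ratios of RT against Ctrl were 0.97, 0.75, 1.24 and 0.26 in that order. The 2 nearest genes with at least 10 counts, LSP1 at 96.4 kb before and the imprinted H19 at 57.3 kb after, had few counts, 75, 25 and 47 for LSP1 and 74, 22 and 33 for H19. Their ratios of RT against Ctrl were -1.15 (-1.86 to -0.48) and -1.31 (-2.07 to -0.61). Those of RT + shHDAC6 against Ctrl were -0.30 (-0.86 to 0.24) and -0.79 (-1.43 to -0.18), each far above the -5.33 of MRPL23.

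**Figure D3:**
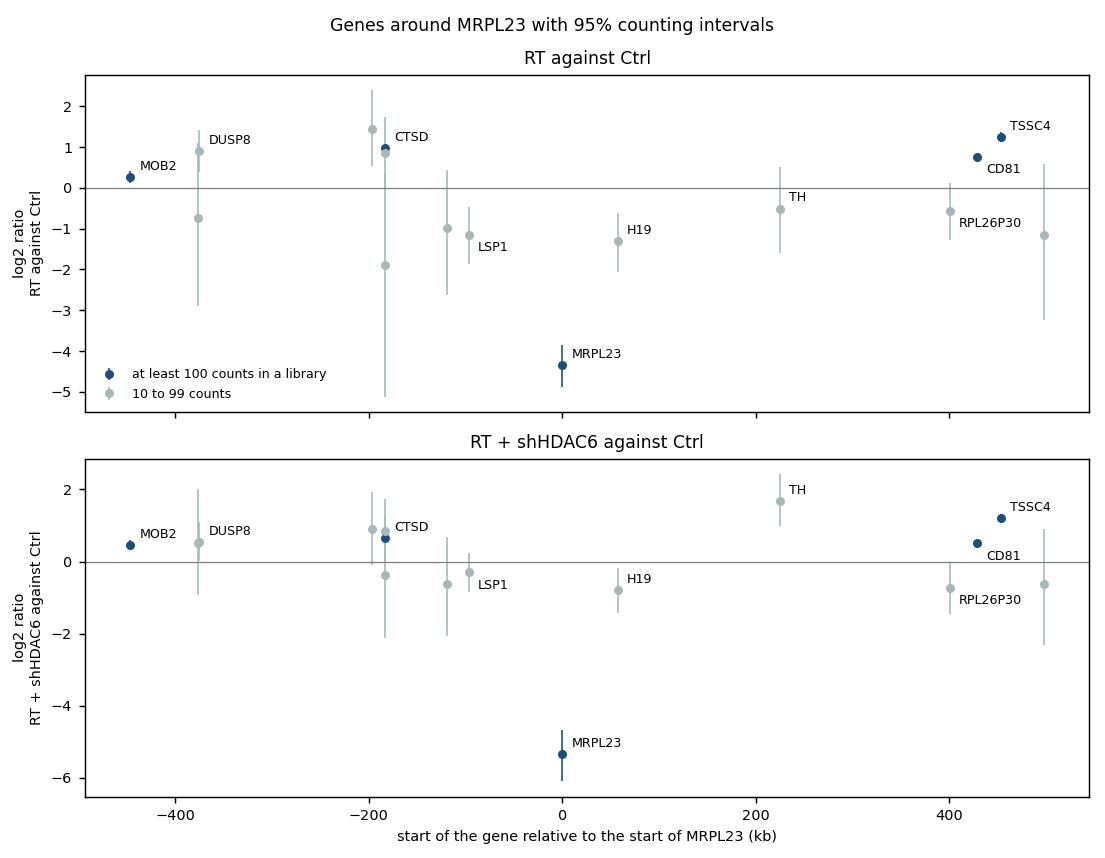
Log2 ratio against Ctrl of RT (above) and RT + shHDAC6 (below) for the genes with at least 10 counts that start within 500 kb of MRPL23, by the distance of their start from that of MRPL23 in kb, with 95% counting intervals. MRPL23 stands at -4.35 and -5.33, while the other genes with at least 100 counts lie above 0 in both panels.

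The remaining low ratios of RT against Ctrl were modest. MRPS6 went from 917 counts in Ctrl to 519 in RT and 449 in RT + shHDAC6, with a log2 ratio of -0.39 (-0.54 to -0.23) in RT. MRPS6 shares 9.48% of its exon length with genes on the same strand. Among them is SLC5A3, an inositol transporter gene with 14986, 10520 and 9229 counts. MRPS14 had 1098, 641 and 763 counts (-0.34), MRPL19 2791, 1791 and 1982 counts (-0.20) and MRPS10 2341, 1509 and 1680 counts (-0.20). None of these 4 reached 1.5-fold, and MRPS6 was the one that was also lower in RT + shHDAC6 than in RT.

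RT + shHDAC6 differed from RT by less. The median log2 ratio of the family was 0.08, against -0.0032 over 19013 genes, and 53 of 78 genes (67.9%) were above 0, against 49.6%. The large subunit genes had a median of 0.05 and the small subunit genes one of 0.11. Of the 78, 0 were called higher and 2 lower, while 10.1% of all genes were called higher and 9.93% lower. The counting interval lay above 0 for 31 genes, below 0 for 7 and across it for 40. The nearest gene under the upper limit was MRPS33 with 0.56, and the nearest past the lower one was MRPS24 with -0.68.

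The genes called lower in RT + shHDAC6 were MRPL23, with 34 counts in RT and 18 in RT + shHDAC6 (log2 ratio -0.98, -1.89 to -0.11), and MRPS24, with 40 and 26 counts (-0.68, -1.45 to 0.064). Both rest on few counts, and the interval of MRPS24 spans 0. Among genes with at least 100 counts the lowest were MRPL32 (1097 counts in Ctrl, then 1164 and 950) at -0.36, the most abundant gene MRPL51 (3534, 2849 and 2455) at -0.28, MRPS6 at -0.27, MRPL35 at -0.16 and MRPS11 at -0.16. MRPL51 shares 27.6% of its exons with NCAPD2, a condensin gene on the other strand, which had 31889, 25935 and 22122 counts.

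The highest ratios of RT + shHDAC6 against RT belonged to MRPS33, particular to mitochondria, with 469 counts in Ctrl, then 334 in RT and 514 with the shRNA, a log2 ratio of 0.56 (0.36 to 0.76). MRPS36, which despite its symbol is a subunit of the 2-oxoglutarate dehydrogenase complex, had 382, 301 and 442 counts and a ratio of 0.49 (0.28 to 0.71). MRPS31 had 588, 468 and 657 counts (0.43). MRPS22 had 2183, 2122 and 2898 counts (0.39), and MRPL44, a protein with the fold of RNase III, had 866, 632 and 856 counts (0.38). MRPL3 had 5955, 4387 and 5928 counts, a ratio of 0.37 (0.32 to 0.43). In MRPS33, MRPL44 and MRPL3 the RT library was level with Ctrl after scaling, with ratios of -0.05, -0.02 and -0.0057, and RT + shHDAC6 was above both. MRPS22, by contrast, was higher in each irradiated library, 0.39 in RT against Ctrl.

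**Figure D4:**
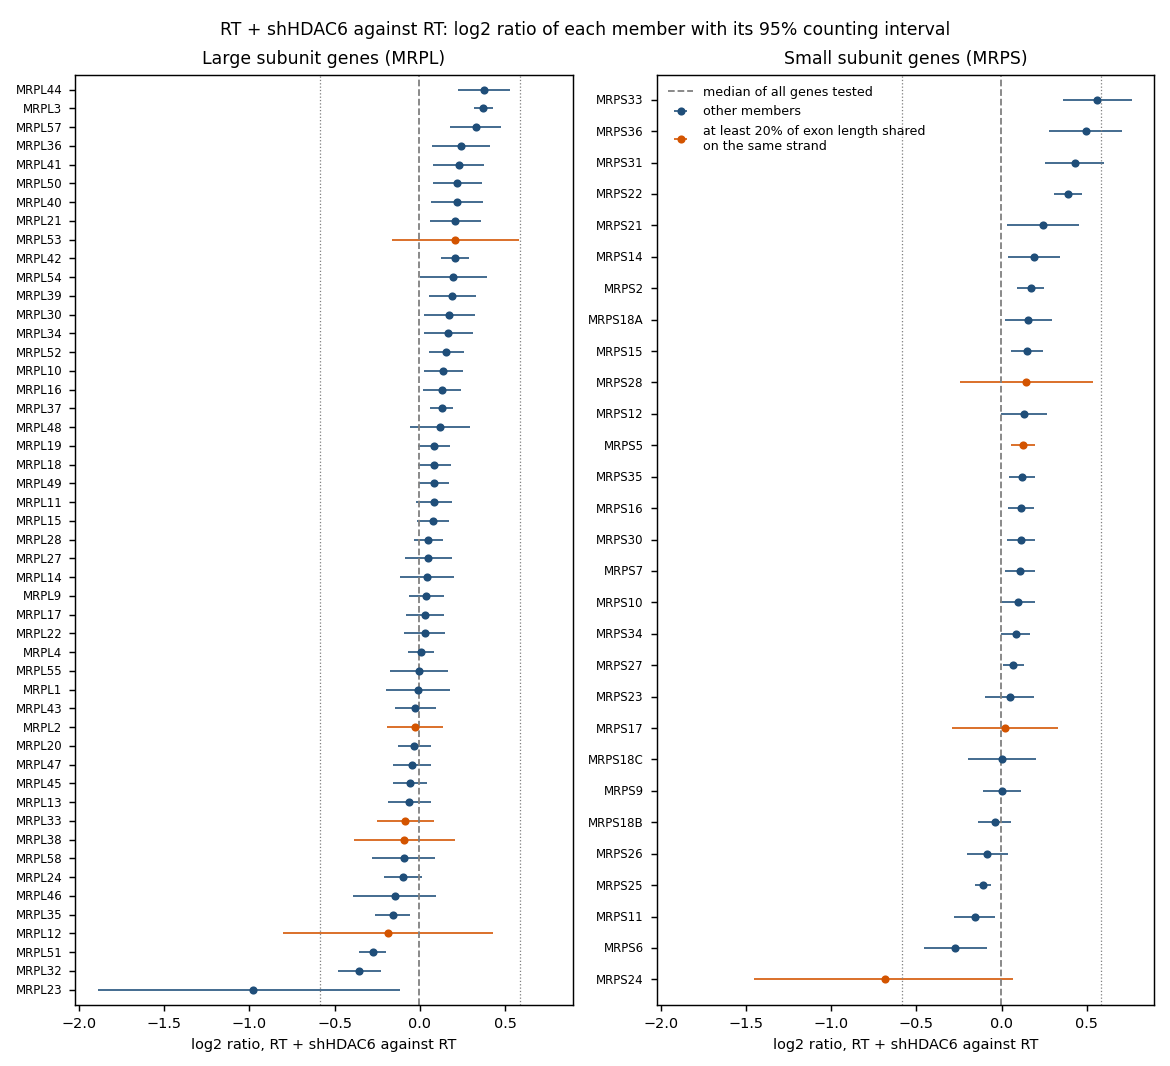
Log2 ratio of RT + shHDAC6 against RT on the x axis for each large (left) and small subunit gene (right), drawn as in the plot of RT against Ctrl. All points lie inside the dotted lines at 1.5-fold except MRPL23 at -0.98 and MRPS24 at -0.68, whose bars are among the widest.

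Against Ctrl the family stood higher in RT + shHDAC6 than in RT. This comparison shares a library with each of the others and is given beside them. The median log2 ratio was 0.35, against -0.06 over 20374 genes, and with library totals it was 0.22. The distance to all genes was 0.41, and 67 of the 78 genes (85.9%) were above 0, against 46.2% of all genes. The large subunit genes had a median of 0.32 and the small subunit genes one of 0.36. Of the 78 genes 13 were called higher and 2 lower, while 13.9% of all genes were called higher and 20.5% lower. By symbol the 13 were 5 large and 8 small subunit genes, and by the place of the protein 6 large and 7 small. They were led by MRPS24 (1.37), MRPL46 (1.26), MRPL53 (1.18), MRPL36 (0.97), MRPL38 (0.95), MRPS25 (0.88) and MRPS12 (0.87). Among the other small subunit genes called, MRPS2, which has a bacterial counterpart, had 2084, 2260 and 2653 counts and a ratio of 0.72. The 2 called lower were MRPL23 and MRPS6 (-0.66, -0.82 to -0.49).

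The genes with a role of their own went in both directions in RT + shHDAC6 against RT. The stalk genes MRPL10 and MRPL11 had log2 ratios of 0.29 and 0.21 in RT against Ctrl and of 0.14 and 0.081 in RT + shHDAC6 against RT, and MRPL12, the third stalk gene, with few counts, had 0.73 and -0.18. MRPL45, which ties the ribosome to the inner membrane, had 2032, 1631 and 1636 counts and ratios of 0.12 and -0.06. MRPL58, a peptidyl-tRNA hydrolase built into the large subunit, had 524, 494 and 483 counts and ratios of 0.35 and -0.095. The paralogs MRPS18A, MRPS18B and MRPS18C had 0.45, 0.33 and 0.19 in RT against Ctrl. MRPS30, a large subunit protein despite its symbol, had 2649, 2315 and 2615 counts and ratios of 0.24 and 0.11. With MRPS30 and MRPS18A moved to the large subunit, where their proteins sit, and MRPS36 left out, the medians of RT against Ctrl were 0.22 for 51 large and 0.25 for 26 small subunit genes.

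Shorter members of the family had higher ratios in RT against Ctrl. Across the 78 genes Spearman's rho between the ratio and the canonical length was -0.41, against -0.12 across 11249 protein-coding genes with at least 100 counts. Genes are not independent replicates and share both libraries, so no p is given. For RT + shHDAC6 against RT rho was 0.13 and -0.045. The members are short, with a median canonical length of 1242 bases against 3384 in protein-coding genes. They lie on 21 chromosomes, and 16 of the 78 (20.5%) start within 500 bases of a protein-coding gene on the other strand, against 9.52% of 14470 protein-coding genes.

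The other genes of mitochondrial translation are given as the distance of a list's median from that of all genes, which no scaling changes. In RT against Ctrl the family's distance was 0.28. It was 0.36 for 5 mitoribosome proteins with other names, among them PTCD3 (4199, 4360 and 4854 counts) and DAP3 (3960, 3417 and 3814). None of these 5 was called. Over all genes 14.5% were called higher and 20.5% lower. The 27 assembly factors stood 0.48 above all genes, with 9 called higher (33.3%) and 0 lower. Their highest ratio, 1.28, belonged to MRM1, an rRNA methyltransferase with 306, 551 and 474 counts. The 19 translation factors stood 0.35 above all genes, with 4 called higher (21.1%) and 0 lower. Of these TUFM, the elongation factor that delivers tRNA, had 10387, 13804 and 12178 counts (0.85), GFM1, which moves the ribosome along the mRNA, 2986, 3586 and 5079 (0.70), and PDF, which removes the formyl group from new proteins, 138, 308 and 281 (1.59). The 20 genes for charging tRNA stood 0.31 above, with 6 called higher (30%) and 0 lower.

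The genes that make and process mitochondrial RNA stood further up. The 15 nuclear genes for transcription, replication and RNA processing had a distance of 0.72. Of these, 9 were called higher (60%, against 14.5% of all genes) and 0 lower (against 20.5%). TWNK, the mitochondrial DNA helicase, had 1002, 1595 and 1919 counts (1.11), and POLRMT, the RNA polymerase, 3141, 4186 and 3763 (0.85). TWNK shares exons with MRPL43 on the other strand, which had 1466, 1112 and 1140 counts and a ratio of 0.04. All 13 mitochondrially encoded mRNAs were called higher, with a distance of 1.18. The rRNAs of the mitoribosome had log2 ratios of 0.57 (MT-RNR1, 68563, 75329 and 75949 counts) and 0.58 (MT-RNR2, 203611, 225767 and 214364 counts). Since mRNA libraries recover rRNA incompletely, these counts need not follow the rRNA content.

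Proteins of the cytosolic ribosome were nearer to all genes. The 87 cytosolic ribosomal protein genes tested, taken by symbol, had a distance of 0.029 in RT against Ctrl. Of these, 6 were called higher (6.9%) and 2 lower (2.3%). The 2 called lower had few counts, RPS4Y2 with 21, 3 and 16 and RPL39L with 110, 50 and 85. The 61 nuclear genes of the respiratory chain had a distance of 0.15, with 5 higher (8.2%) and 0 lower. These shares were under those of all genes, 14.5% higher and 20.5% lower. In RT + shHDAC6 against RT the distances were 0.086 for the family, 0.10 for the cytosolic ribosomal proteins, 0.034 for the nuclear respiratory chain, -0.00062 for the assembly factors and -0.22 for the mitochondrially encoded mRNAs. Neither an assembly factor, a translation factor nor a mitochondrially encoded mRNA was called in that comparison. Of all genes 10.1% were called higher in it and 9.93% lower.

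**Figure D5:**
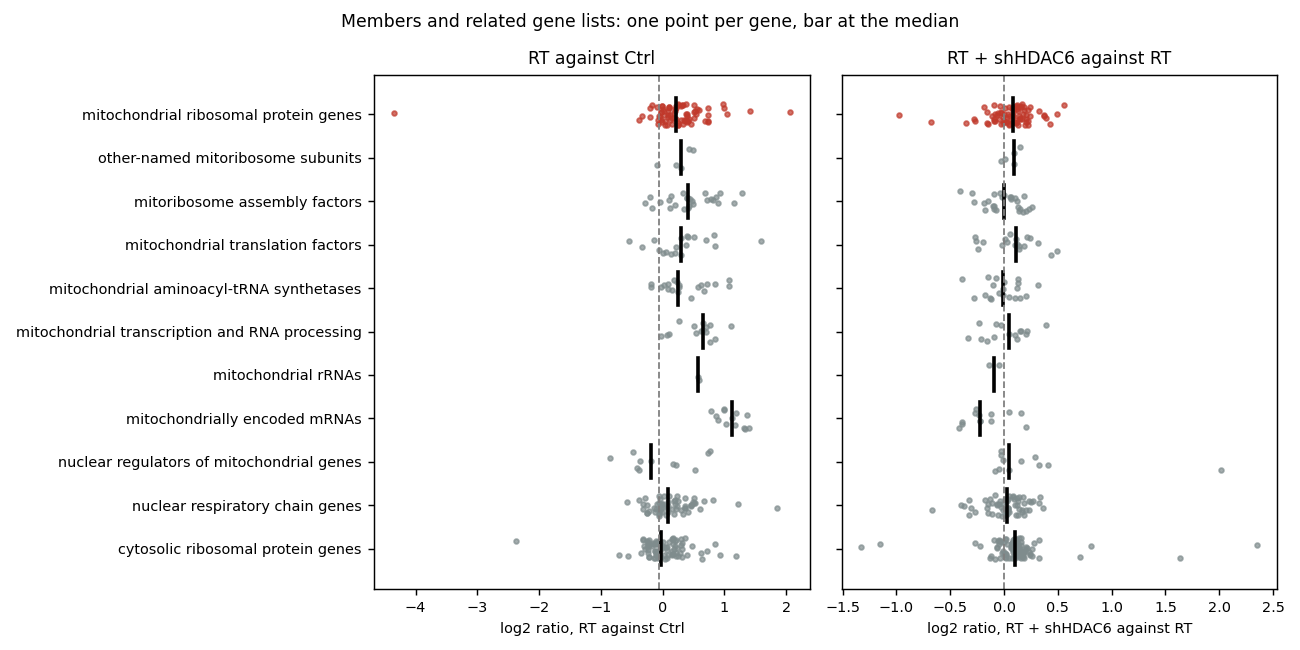
Log2 ratio of each gene (points) and the median (black bar) for the family (red) and 10 related lists (grey), in RT against Ctrl (left) and RT + shHDAC6 against RT (right), with a dashed line at the median of all genes. The median of the 13 mitochondrially encoded mRNAs lies furthest right on the left panel. Most medians lie close to the dashed line on the right panel.

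Regulators that bind such promoters went in both directions. In RT against Ctrl 11 nuclear regulators had a distance of -0.12 to all genes. Of these, 2 were called higher (18.2%, against 14.5% of all genes) and 1 lower (9.09% against 20.5%). YY1 had 5644, 3667 and 3955 counts (log2 ratio -0.19), GABPA 3399, 1882 and 1931 (-0.42), NRF1 988, 820 and 827 (0.17) and MYC 4415, 4675 and 5438 (0.52). The coactivator gene PPARGC1B had 961, 1179 and 1501 counts (0.73). Its relative PPARGC1A had 22, 9 and 38 counts, and was the 1 regulator called in RT + shHDAC6 against RT, at 2.02. That is 9.09% of the 11, against 10.1% of all genes called higher.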

How the data were processed

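RNA-seq was carried out on 3 T24 libraries, 1 per condition, grouped by the sample labels. Per the labels and the methods, the authors used cutadapt for trimming, STAR for alignment to GRCh38 (2.6.1a in the submitters' processing notes, another version in the methods) and featureCounts with GENCODE release 28, and the deposited values are raw read counts per gene. The strand setting and the handling of reads matching several genes were not stated, and the labels and the methods name different library kits. Either choice can split or share counts between overlapping genes.

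Symbols, exons and positions came from GENCODE release 44, to which 57754 of 58381 identifiers matched; unmatched identifiers held 0.0788% to 0.088% of the counts. The effective library sizes were computed with TMM (edgeR 4.0.16, R 4.3.3), and DESeq2 1.42.0 gave size factors for an alternative. Genes with at least 10 counts in one of both libraries were compared, and a count of 0 was set to 0.5. Log2 ratios carry 95% Clopper-Pearson intervals (scipy 1.17.1), which cover counting error only, since each condition has 1 library. They treat reads as independent molecules, which reads are not, so they can be too narrow. A count of 0 allows up to 3 counts, or 0.0718 to 0.0847 CPM. A gene was called at 1.5-fold or more. Since there was 1 library per condition, no count test was run, and the simulated noise of NOISeq, which the study used, was not used here.

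The members, gene lists and named genes were chosen with earlier results of these data known. Named genes are the 5 highest and 5 lowest members per comparison with at least 100 counts, the 3 highest and lowest levels per subunit, members with a role of their own, and neighbours within 500 kb of a member changed at least 4-fold; all called members were named as well. Motif letters were searched on both strands with overlaps allowed.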

Additional observations from a re-analysis of the deposited data

How the results depend on the processing

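With 1 library per condition, no library could be left out. No paired analysis was possible because each condition has 1 library and no test was run. Across the alternatives, 205 of the summary values moved little (counts within 1.5 times, log2 values by less than the reach of a counting interval), 27 moved by more and 2 changed sign; of the values of named members 978 moved little, 47 moved by more, and 0 of those past 1.5-fold changed sign. In RT against Ctrl, library totals gave medians of -0.00093 for the family and -0.0089 for the large subunit, both reversed, and 0.027 for the small subunit, with 5 members called higher and 2 lower; the calls over all genes were then 1682 higher and 6352 lower, against 2938 and 4156 with TMM. With at least 100 counts they were 1989 and 1279. With a limit under 1.5-fold, the lower of both tried, 30 members were higher (38.5%, against 25.5% of all genes) and 3 lower (3.85% against 33.9%). With 2-fold 3 were higher (3.85% against 4.81%). Without members that share exons 4 were higher (10.8% against 14.5%) and 0 lower (against 20.5%). Without MRPL23, chosen after seeing the data, 0 were lower. In RT + shHDAC6 against RT, 1 member was higher with library totals and with upper quartile factors, and 7 with the lower limit (8.97%, against 18.8% of all genes); 0 were lower with 2-fold, with at least 100 counts and without members that share exons, and 1 without MRPL23. In RT + shHDAC6 against Ctrl, library totals gave medians of 0.22 (family), 0.18 (large) and 0.22 (small). With DESeq2 size factors 21 members were higher (26.9%, against 15.7% of all genes). With ratios centred on the median of all genes (added after seeing the data) 22 were higher (28.2% against 15.9%). The lower limit gave 41 (52.6% against 25.9%) and 2-fold gave 3 (3.85% against 4.91%). Without members that share exons 4 were higher (10.8% against 13.9%) and 0 lower (against 20.5%). With 2-fold and without MRPL23, 1 was lower in each. Fewer members or another limit made these counts differ by construction, and the scalings by a constant shift. Depth limited MRPL12, MRPL53, MRPS24 and, after irradiation, MRPL23.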
